A study of Mus musculus with 59 samples.

Results

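The genes described here encode the proteins of the cytoplasmic ribosome. They were taken by symbol, as the protein-coding genes named Rpl, Rps or Rplp with a number and at most an added a or x, plus Rpsa. This gave 76 genes, 46 for the large and 30 for the small subunit, of 51456 identifiers in the table. All 76 had a mean value of at least 10 and were among the 16919 genes tested.

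Messenger RNA was measured in 59 libraries of prefrontal cortex from C57BL/6J mice at postnatal day 25. The mice were wild type (WT) or heterozygous for Ank2 (HT), the gene of the membrane scaffold protein ankyrin-B, and received vehicle, fluoxetine or lithium for 3 weeks, from postnatal day 3 to 24, through the mother's milk. The 6 groups of genotype and drug were WT vehicle, HT vehicle, WT lithium, HT lithium and HT fluoxetine with 10 libraries each, 5 female and 5 male, and WT fluoxetine with 9 (5 female, 4 male). All groups, vehicle included, were exposed through the milk. The dose that reached a pup and the nature of the Ank2 allele are not given in the sources used here, and the labels do not say whether each library came from its own animal or litter. The p-values therefore measure the spread between these libraries only.

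A ribosome joins a large subunit, which forms peptide bonds, to a small subunit, which reads the mRNA. Each subunit holds 1 copy of nearly every ribosomal protein, and cells make the proteins of both subunits in matched amounts. Their mRNAs are short, abundant in all cell types, and typically begin with a run of pyrimidines, the terminal oligopyrimidine (TOP) start, through which mTOR signalling and Larp1 control their translation. In neurons, ribosomal protein mRNAs are also found in axons and dendrites.

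Start sequences are shown first because the TOP start is known for this class of genes and the choice by name did not use it. The RefSeq table of build GRCm38.p6 held 56 of the 76 genes, with 66 start sites. A start counted as TOP if C at the first base was followed by at least 4 C or T. This was so at 13 of 66 member starts (19.7%), against 2.51% of 32851 starts of all genes. The 6 genes shown were taken from those with such a start. The sequences below run from 60 bases before to 15 bases from the start, on the coding strand, with the pyrimidine run in capitals. Rps18 (chr17:33955651-33955725, minus strand), Rps10 (chr17:27635230-27635304, minus) and Rpl15 (chr14:18270972-18271046, minus) had lower values with fluoxetine in both genotypes. Rps6 (chr4:86857353-86857427, minus) passed the test in WT and not in HT. Rpl35 (chr2:39005117-39005191, minus) and Rplp2 (chr7:141447591-141447665, plus) passed the test in neither.
Rps18: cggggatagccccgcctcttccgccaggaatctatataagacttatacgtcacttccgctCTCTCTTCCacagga
Rps10: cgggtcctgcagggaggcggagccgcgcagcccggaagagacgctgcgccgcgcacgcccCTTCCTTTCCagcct
Rpl15: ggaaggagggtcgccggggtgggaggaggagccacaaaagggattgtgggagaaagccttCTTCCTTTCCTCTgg
Rps6: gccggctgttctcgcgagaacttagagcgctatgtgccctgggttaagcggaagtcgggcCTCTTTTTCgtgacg
Rpl35: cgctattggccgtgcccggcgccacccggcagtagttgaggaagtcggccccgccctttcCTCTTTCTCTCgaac
Rplp2: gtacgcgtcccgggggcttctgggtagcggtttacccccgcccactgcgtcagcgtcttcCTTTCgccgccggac

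A wider search, for C followed by at least 4 C or T within 15 bases of the start, found it at 39 member starts (59.1%) against 36.4% of all. In the 300 bases around each start, 4 short motifs were searched on both strands. CCGGAAG, which contains the core bound by ETS factors, was at 24 member starts (36.4%) against 8.86% of all. GGGCGG, the GC box, was at 40 (60.6%) against 35.7%. AAGATGG, the core of the YY1 motif, was at 11 (16.7%) against 6.34%. TATAAA was at 6 (9.09%) against 13.6%. A match describes letters only. The shares were not tested.

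Ribosomal protein transcripts were short, with a median annotated length of 773 bases (345 to 5130) against 2643 for all genes tested. The median number of exons was 5 against 7, and median GC content was 51.9% against 50.2%. The genes lay on 19 chromosomes, 14 of them on chromosome 7. Summed over the members, their values made up 0.707% to 0.983% of a library.

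Levels were compared between genes per kb of transcript, in WT vehicle (mean ± SD, n = 10). The highest was Rplp1, a protein of the flexible stalk that recruits elongation factors, at 14576 ± 1317 per kb. Rpl41, the smallest ribosomal protein, followed at 11539 ± 849 and Rps24 of the small subunit at 11464 ± 534. These 2 did not differ beyond their spread. The median per kb was 4506 for large and 5102 for small subunit genes. The lowest were Rps20 (633 ± 46.2, over an annotated transcript of 3706 bases), Rps27 (353 ± 439) and Rpl12 (261 ± 34.2), a protein at the base of the stalk.

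Reads of a member can be assigned to near-identical copies elsewhere in the genome. A transcript at least 95% identical over at least 50% of the member counted as a copy. Gm10275, a copy of Rpl12, had a mean value of 3533 and held 91.7% of the sum of the pair. Rps27rt held 93.7% of the sum with Rps27, and Rpl10-ps3 held 68.2% of the sum with Rpl10. The share was 30.5% for Rpl10a-ps1 with Rpl10a, 20.99% for Gm11518 with Rpl27, 20.1% for Gm10443 with Rps28, 13.1% for Rpl31-ps8 with Rpl31, 11.4% for Rpl36a-ps2 with Rpl36a and 9.57% for Gm28037 with Rpl24. Values of these 9 members on their own are uncertain for this reason, and those of Rps27, Rpl10 and Rpl12 the most. Rps27 ranged from 38.9 to 538 within the 10 WT vehicle libraries.

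**Figure D1:**
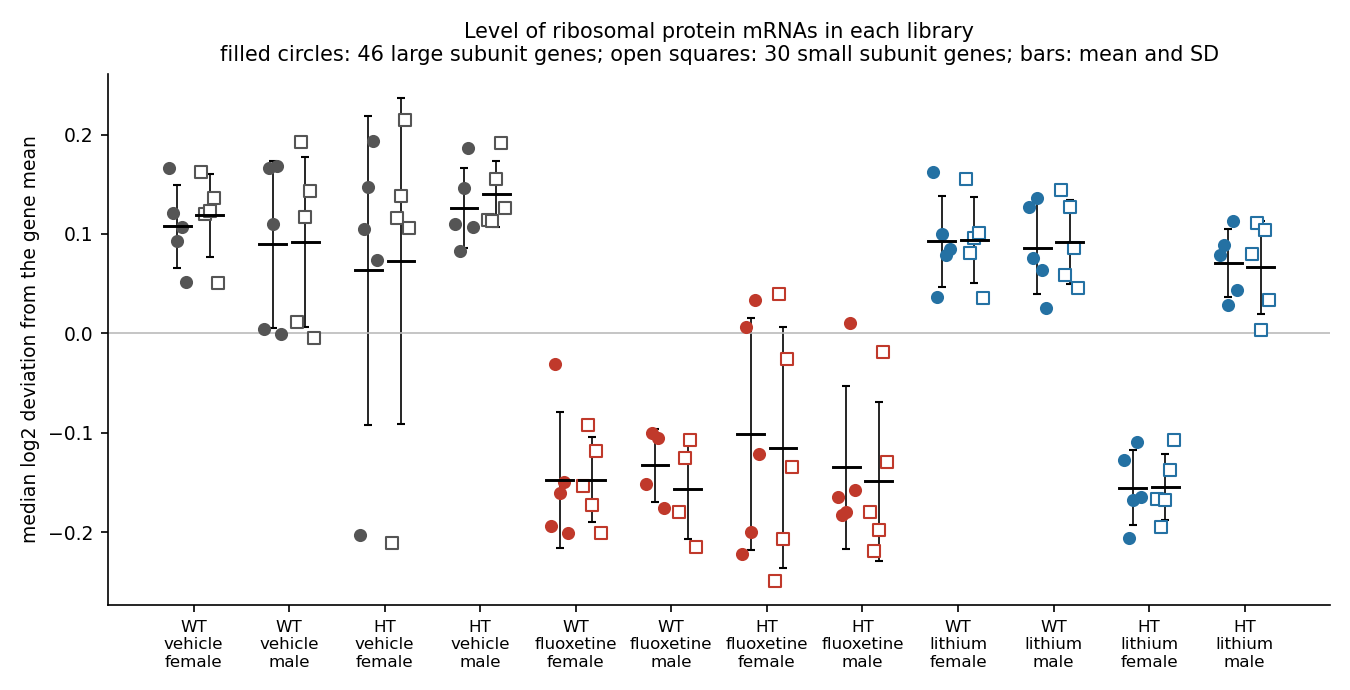
Level of ribosomal protein mRNAs in each library (y axis, median log2 deviation from the gene mean) by genotype, drug and sex (x axis), with filled circles for the 46 large and open squares for the 30 small subunit genes and bars for mean and SD. All WT fluoxetine libraries and all HT lithium females lie below 0, as does HT vehicle female replicate 1, and large and small subunit genes differ by at most 0.06 in any library.

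Library checks came first. Ank2 had 28471 ± 2077 (SD, n = 10) in WT vehicle and 19578 ± 660 in HT vehicle, and HT was below WT under both drugs. Xist was at 9791 or more in females and 71.3 or less in males, which matched the labelled sexes. There were 3 libraries that stood apart: HT vehicle female replicate 1, HT fluoxetine female replicate 2, and HT fluoxetine female replicate 4. The first had 71 of 76 members at the lowest value of the 5 HT vehicle females (93.4%, against 27.8% of all genes). It was thus set apart by the members themselves, and counts against HT vehicle without it follow in part from that choice. The second had choroid plexus markers at a sum of 78385, against medians of 168 to 245 in the 6 groups. The third had the lowest Xist of the females. Excitatory neuron markers were at 110849 or more in every WT vehicle library, and no marker was at 0 throughout. In bulk tissue, fewer cells of a type and less RNA per cell cannot be told apart.

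Large and small subunit genes moved together in each library. Their level was taken as the median log2 deviation from the gene mean. The 2 medians differed by -0.06 to 0.06 in the 59 libraries, whereas the large subunit level ranged from -0.22 to 0.19 and the small subunit level from -0.25 to 0.21. In WT vehicle the large subunit level was 0.10 ± 0.06 (SD, n = 10) and the small subunit level 0.11 ± 0.06. In WT fluoxetine they were -0.14 ± 0.05 and -0.15 ± 0.04 (n = 9). In HT fluoxetine they were -0.12 ± 0.10 and -0.13 ± 0.10 (n = 10), with 3 libraries near 0.

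The Ank2 genotype without a drug was examined first. In HT vehicle against WT vehicle, 0 of 76 members passed the threshold in limma (adjusted p under 0.05, over all genes), and 0 had an unadjusted p under 0.05. Of all genes, 0.00591% were lower and 578 had an unadjusted p under 0.05. The median log2 change of the members was -0.00. Rpl15 was at 0.06 ± 0.037 (SE, adjusted p = 1). Rpl38, which affects the translation of selected developmental mRNAs, was at -0.07 ± 0.064.

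Fluoxetine in WT mice was compared with vehicle next. Of the 76 genes, 59 fell and 0 rose, whereas 7.78% of all genes fell and 7.0% rose. The median log2 change over the 76 was -0.25, and 74 were below 0. Of the large subunit genes 32 of 46 fell and of the small subunit genes 27 of 30, with a median of -0.25 in each. In 25 members (13 large, 12 small) every fluoxetine library lay below every vehicle library, against 0.975% of all genes.

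In HT mice 53 members fell with fluoxetine and 0 rose, whereas 7.38% of all genes fell and 6.63% rose. The median was -0.24. Of the large subunit genes 29 fell (median -0.20), and of the small subunit genes 24 fell (median -0.27). In both genotypes 51 members fell, 86.4% of those in WT and 96.2% of those in HT. The 2 comparisons share no library, but they share the estimate of the spread from all 59 libraries. The members also moved together in each library, so the 51 are not separate results. The difference of the fluoxetine effects between genotypes passed the test in 0 of 76 members in limma, with an unadjusted p under 0.05 in 3 (1291 of all genes). In HT only 1 member had groups that did not overlap (0.171% of all genes). Without HT vehicle female replicate 1 this was 30 (1.11%), and 58 members fell. With that library kept, 53 members and 1248 of all genes fell. Without the 3 libraries that stood apart, 62 fell (1373 of all genes). HT vehicle female replicate 1 was set apart by its low member values, so larger counts without it follow in part from that choice.

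**Figure D2:**
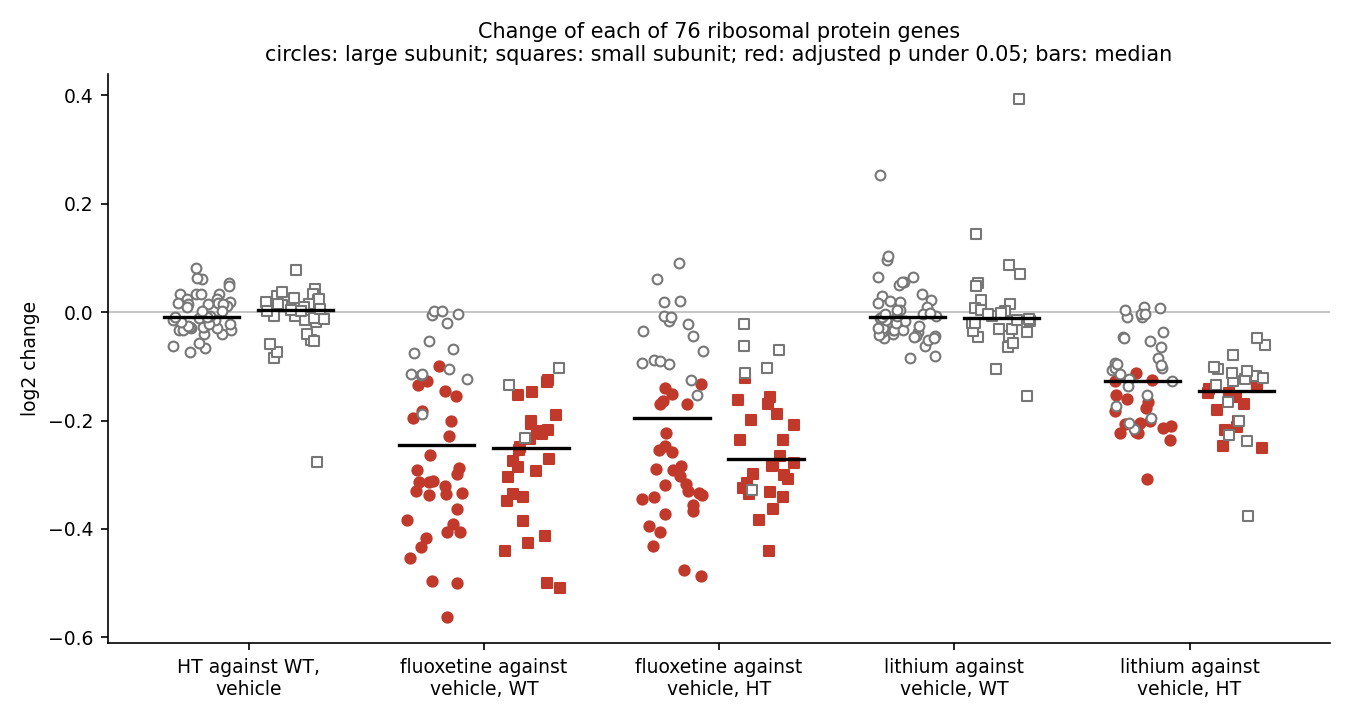
Log2 change of each of the 76 ribosomal protein genes (y axis, from the linear model) in 5 comparisons (x axis), with circles for large and squares for small subunit genes, red for adjusted p under 0.05 and bars for medians. Most points lie below 0 with fluoxetine in WT and HT and with lithium in HT, and they lie around 0 for genotype in vehicle and for lithium in WT.

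The proteins of the large subunit are taken first, from the stalk. Rplp1 ranged from 5974 to 8323 in WT vehicle (median 7368) and from 4241 to 7142 in WT fluoxetine (median 5088). In HT it ranged from 3760 to 8104 in vehicle (median 7518) and from 4737 to 6768 in fluoxetine (median 5412). The groups overlapped in WT at the upper end of fluoxetine, and in HT through HT vehicle female replicate 1 alone, since the other vehicle libraries were at 6858 or more. Rplp1 fell by 0.50 ± 0.091 on the log2 scale in WT (adjusted p = 9.3e-05) and by 0.34 ± 0.088 in HT (adjusted p = 0.0053).

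Rplp2, the partner of Rplp1 in the stalk, did not pass the test. Its values were 2298 to 2823 in WT vehicle (median 2655) and 1805 to 2858 in WT fluoxetine (median 2469), so the groups overlapped throughout. In HT they were 1936 to 2911 (median 2501) and 2434 to 2928 (median 2635). The log2 changes were -0.10 ± 0.065 (adjusted p = 0.31) and 0.09 ± 0.063 (adjusted p = 0.36). Rplp0, which anchors the stalk to the subunit, was at -0.12 ± 0.048 (adjusted p = 0.071) and -0.09 ± 0.046 (adjusted p = 0.18).

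Rpl24, which forms a bridge between the subunits, had the largest fall of the members in WT as deposited. Its values were 2707 to 3539 in WT vehicle (median 3107) and 1507 to 2898 in WT fluoxetine (median 2134). In HT they were 2236 to 3545 (median 3249) and 1915 to 2651 (median 2217). The WT fluoxetine group overlapped the vehicle group at its upper end, and the HT overlap came from HT vehicle female replicate 1, as the other vehicle libraries were at 2900 or more. Rpl24 fell by 0.56 ± 0.073 in WT (adjusted p = 2.0e-07) and by 0.49 ± 0.071 in HT (adjusted p = 2.2e-06). With its near-identical copies summed in, the falls were 0.24 ± 0.039 (adjusted p = 1.7e-05) and 0.27 ± 0.038 (adjusted p = 7.7e-07). Rpl24 lies at chr16:55966275-55971435 on the plus strand (GRCm38).

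Rpl26, at the exit of the peptide tunnel and known to bind p53 mRNA, had the smallest p-value in WT. It was at 4274 to 5098 in WT vehicle (median 4606) and at 3288 to 3694 in WT fluoxetine (median 3504), with no overlap. In HT it was at 3769 to 4956 (median 4599) and 3344 to 4191 (median 3648). The overlap there came from HT vehicle female replicate 1 alone, as the other vehicle libraries were at 4375 or more. The log2 change was -0.41 ± 0.041 in WT (adjusted p = 6.8e-10) and -0.29 ± 0.040 in HT (adjusted p = 6.5e-07). Rpl22, an RNA-binding protein at the surface of the subunit, did not overlap between the groups in WT: it was at 2289 to 2809 in vehicle (median 2539) and 1722 to 2066 in fluoxetine (median 1964). It fell by 0.39 ± 0.052 in WT and by 0.36 ± 0.051 in HT.

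Other large subunit genes with the smallest p-values were Rpl15, Rpl34 and Rpl27 in WT and Rpl34, Rpl9, Rpl35a, Rpl15 and Rpl10a in HT. Rpl34 changed by -0.36 ± 0.047 in WT and -0.41 ± 0.045 in HT, and Rpl10a, a protein of the mobile L1 stalk, by -0.43 ± 0.057 and -0.43 ± 0.055. Rpl9 was at -0.30 and -0.37, Rpl35a at -0.31 and -0.39, Rpl15 at -0.33 and -0.32, and Rpl27 at -0.41 and -0.37. All of these passed in both genotypes. With copies summed, Rpl10a fell by 0.31 ± 0.042 in WT and by 0.21 ± 0.040 in HT (adjusted p = 0.00019), and Rpl27 by 0.35 ± 0.038 and 0.24 ± 0.037 (adjusted p = 7.9e-06). Rpl41 and Rpl38 also fell in both, by 0.42 and 0.38 in WT and by 0.33 and 0.28 in HT.

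Several central proteins of the large subunit changed little or did not pass the test. Rpl3, which reaches towards the peptidyl transferase centre, was at 11005 to 12224 in WT vehicle (median 11668) and 10369 to 11321 in WT fluoxetine (median 10881). It fell by 0.10 ± 0.031 in WT (adjusted p = 0.02) and was at -0.04 ± 0.030 in HT (adjusted p = 0.35). Rpl4, which lines the peptide tunnel, was at 9488 to 10596 in WT vehicle (median 10157) and 9461 to 10762 in WT fluoxetine (median 10088), and the groups lay over one another. Its log2 change was 0.0013 ± 0.028 in WT and 0.02 ± 0.027 in HT. Rpl5 and Rpl11 carry the 5S ribosomal RNA and bind Mdm2 when assembly is disturbed. Rpl11 fell by 0.20 ± 0.040 in WT and 0.13 ± 0.039 in HT, and Rpl5 was at -0.11 ± 0.052 (adjusted p = 0.14) and -0.01 ± 0.050 (adjusted p = 0.94).

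Of the small subunit, Rps18, a protein of the head, had the smallest p-value in WT. Its values were 3413 to 4073 in WT vehicle (median 3655) and 2520 to 2943 in WT fluoxetine (median 2787), with no overlap. In HT they were 2862 to 4202 (median 3750) and 2619 to 3255 (median 2923), where only HT vehicle female replicate 1 reached into the fluoxetine range. Rps18 fell by 0.41 ± 0.044 in WT (adjusted p = 2.0e-09) and by 0.33 ± 0.042 in HT (adjusted p = 1.5e-07). It lies at chr17:33951999-33956001 on the minus strand (GRCm38).

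Rps19 and Rps14 are needed to mature the small subunit, and in people their loss is known from Diamond-Blackfan anaemia and the 5q- syndrome. Rps19 was at 1834 to 2554 in WT vehicle (median 2249) and 1481 to 1848 in WT fluoxetine (median 1631), where the top fluoxetine library passed the lowest vehicle library. It fell by 0.43 ± 0.054 in WT (adjusted p = 1.5e-07) and by 0.38 ± 0.053 in HT (adjusted p = 6.4e-07). Rps14 was at 4504 to 5457 in WT vehicle (median 4940) and 3383 to 4094 in WT fluoxetine (median 3813), with no overlap. It fell by 0.38 ± 0.050 in WT and by 0.30 ± 0.049 in HT.

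Rps27a, made as a fusion with ubiquitin, fell by 0.34 in both genotypes. Rps3, which lies at the mRNA entry, was at -0.23 in WT and -0.31 in HT, Rps4x at -0.22 and -0.20, and Rps25 at -0.22 and -0.28. Rps24 was at -0.28 in WT and -0.32 in HT. All passed in both genotypes.

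Rps6, the main substrate of S6 kinase, moved less. Its values were 4312 to 4737 in WT vehicle (median 4493) and 3903 to 4323 in WT fluoxetine (median 4078), with a slight overlap. It fell by 0.13 ± 0.030 in WT (adjusted p = 0.0026) and was at -0.06 ± 0.030 in HT (adjusted p = 0.15). Rpsa, also known as the laminin receptor precursor, was at 9047 to 10654 in WT vehicle (median 9880) and 7583 to 9264 in WT fluoxetine (median 8642). It fell by 0.21 ± 0.049 in WT (adjusted p = 0.0022) and was at -0.10 ± 0.048 in HT (adjusted p = 0.15).

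**Figure D3:**
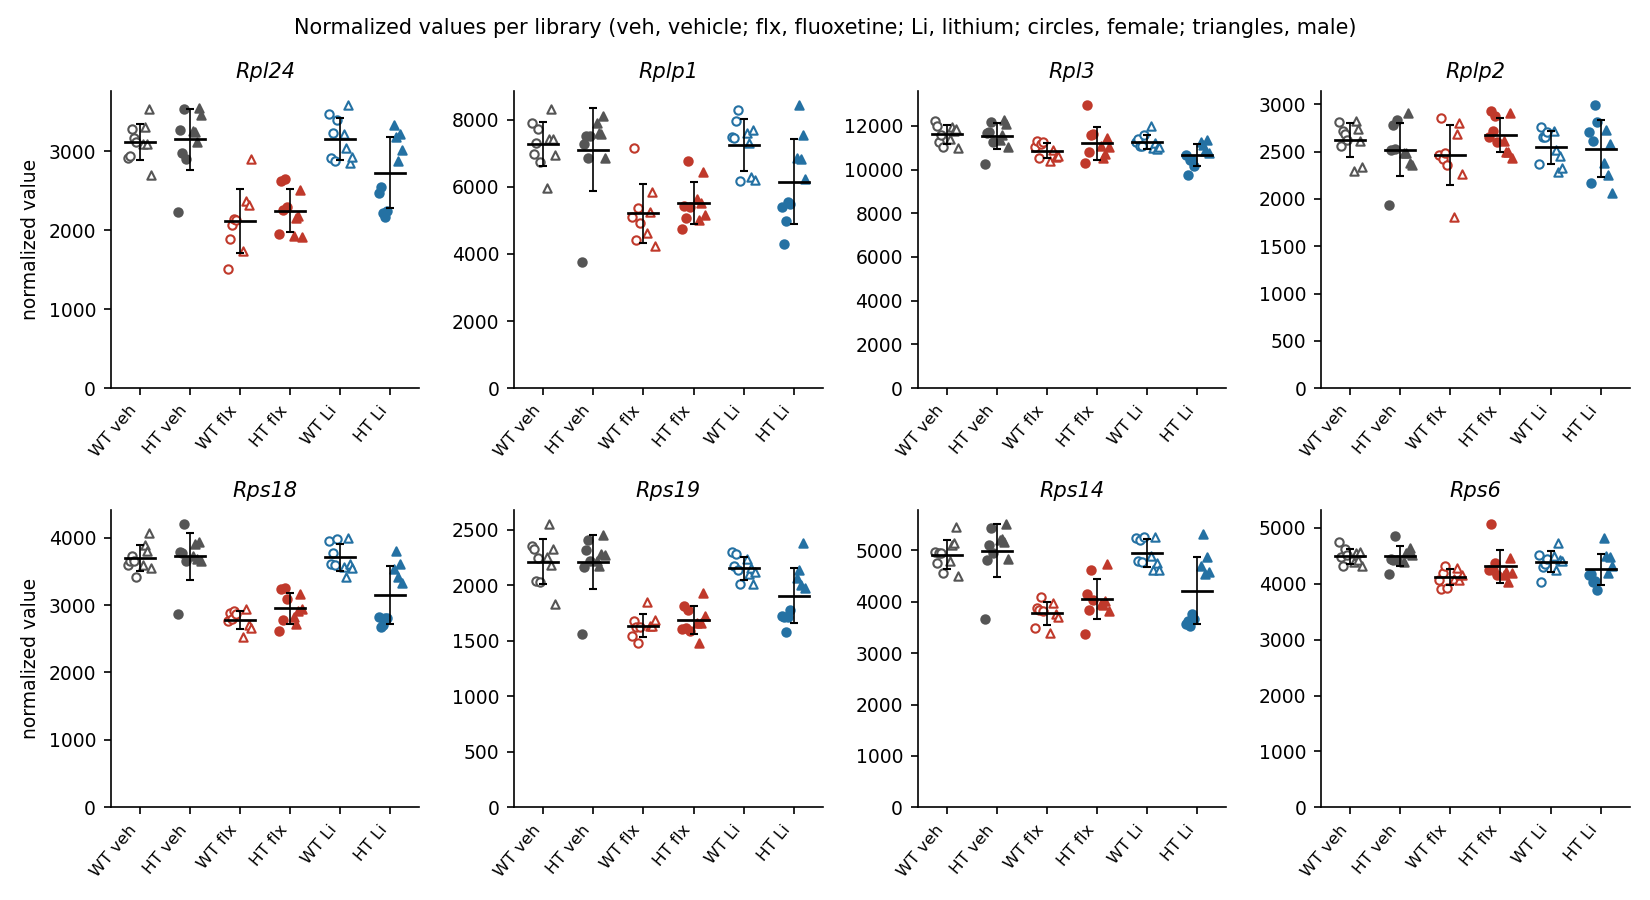
Normalized value of 8 ribosomal protein genes in each library (y axes, from 0) by genotype and drug (x axes), with circles for females, triangles for males and bars for mean and SD. Rps18 and Rps14 have all WT fluoxetine points below all WT vehicle points, and the groups of Rplp2 overlap.

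The genes that passed with fluoxetine in neither genotype were 15: Rpl4, Rpl5, Rpl6, Rpl10, Rpl13, Rpl14, Rpl21, Rpl28, Rpl29, Rpl35, Rplp0, Rplp2, Rps2, Rps16 and Rps27. Their members include 12 of the large and 3 of the small subunit. Log2 changes above 0 were those of Rpl4 and Rpl14 in WT (0.0013 and 0.0012) and of Rpl21 (0.06), Rplp2, Rpl6 (0.02) and Rpl4 in HT, and none passed. When the values of near-identical copies were summed, Rps27 fell by 0.49 in WT (adjusted p = 7.3e-07) and 0.56 in HT (adjusted p = 3.6e-08), Rpl10 by 0.11 in each (adjusted p = 0.0265 and 0.0178), and Rpl12 by 0.21 and 0.24. As deposited, Rps27 was at -0.23 ± 0.473 and -0.33 ± 0.459, and Rpl12 at -0.19 ± 0.079 (adjusted p = 0.11) and -0.25 ± 0.077 (adjusted p = 0.019).

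The size of the change moved with transcript length. In WT, 31 of the 33 members of up to 700 bases fell with fluoxetine (median -0.32), 20 of 26 between 700 and 1000 bases (median -0.20), and 8 of 17 above 1000 bases (median -0.12). In HT the counts were 30, 16 and 7, with medians of -0.32, -0.15 and -0.09. Among all 1564 tested genes of up to 1000 bases, 31.8% fell in WT (median -0.15) and 28.6% in HT (median -0.13). Of the 59 members of that length, 51 fell in WT (median -0.29) and 46 in HT (median -0.28).

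**Figure D4:**
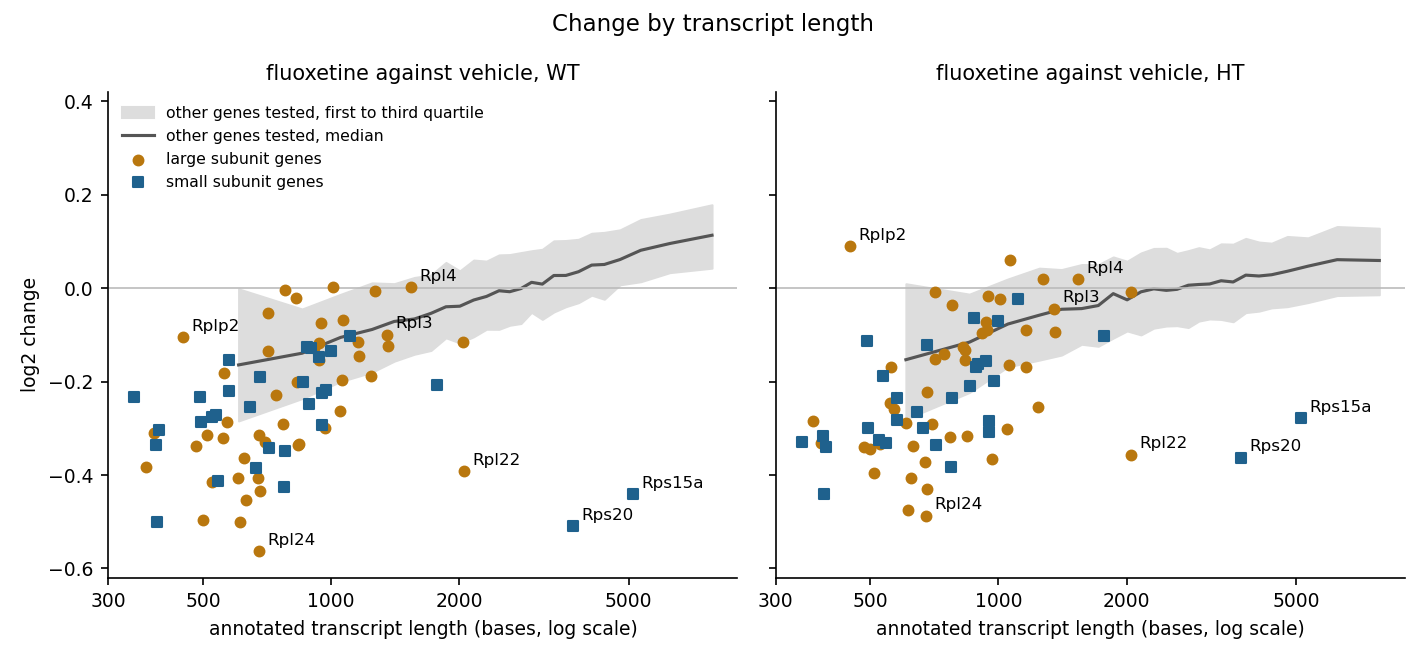
Log2 change with fluoxetine (y axes) in WT and HT against annotated transcript length on a log scale (x axes) for large (circles) and small (squares) subunit genes, over the median (line) and quartiles (band) of the other genes tested in bins of length. Other genes lie lower the shorter their transcripts, and Rps20, Rps15a and Rpl22 lie far under genes of their length.

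Each library was given a length slope, the change in log2 deviation per doubling of transcript length over 10789 genes. It was -0.0319 ± 0.0115 (SD, n = 10) in WT vehicle and 0.0491 ± 0.0196 in WT fluoxetine (n = 9), and -0.0223 ± 0.0358 in HT vehicle and 0.0313 ± 0.0196 in HT fluoxetine. Libraries with a positive slope had lower ribosomal protein levels as a rule, also with the members left out of the slope. When the trend with length and GC content was removed from each library, 30 members fell and 2 rose (Rpl29 and Rpl6, by 0.13 and 0.08) with fluoxetine in WT, with a median of -0.10, and 2.66% of all genes fell and 3.02% rose. In HT 34 fell and 5 rose, with a median of -0.11, and 4.28% of all genes fell and 5.46% rose. The 5 were Rpl21 (0.14), Rplp2 (0.25), Rpl6 (0.08), Rpl4 (0.08) and Rpl29 (0.10). The largest falls after removal in WT were those of Rps20 (-0.57), Rps15a (-0.51) and Rpl24 (-0.41). The annotated transcripts of Rps20 and Rps15a are long (3706 and 5130 bases), and these lengths enter the correction. Whether the length trend accounts for the lower values was not tested.

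**Figure D5:**
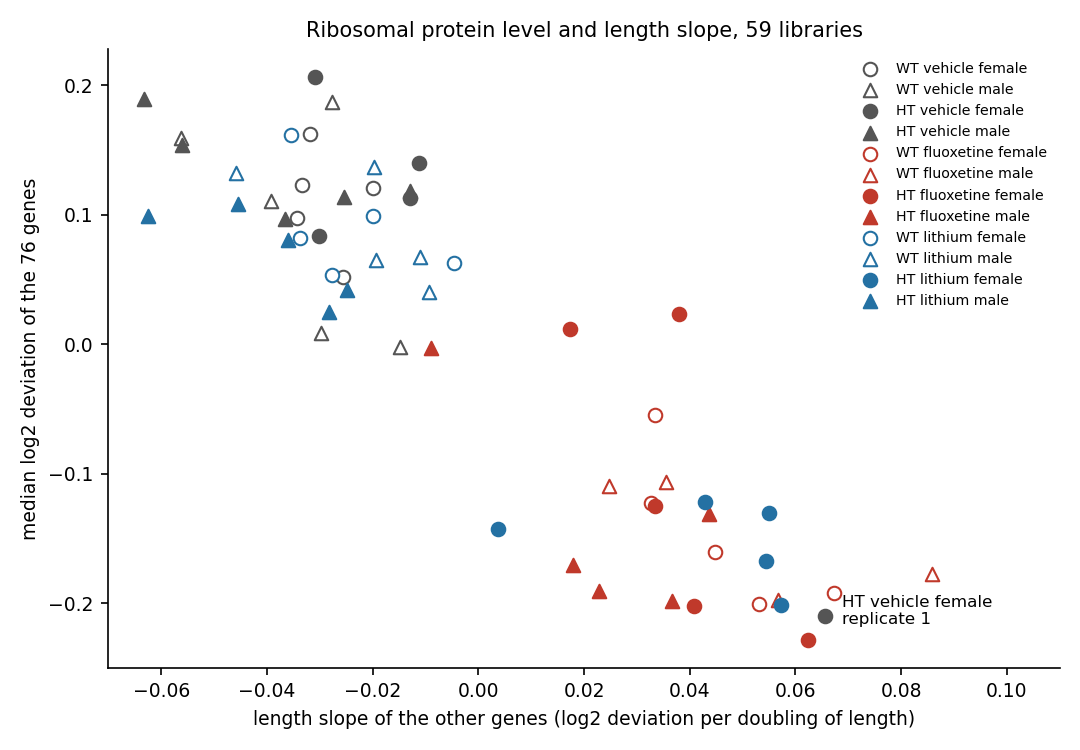
Median log2 deviation of the 76 genes (y axis) against the length slope computed over the other genes (x axis, log2 deviation per doubling of length), with 1 point per library in 12 groups of genotype, drug and sex. The level is lower where the slope is higher, and HT vehicle female replicate 1, at -0.21, lies beside fluoxetine libraries and HT lithium females.

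Lithium was compared with vehicle in WT. Of 76 members 0 fell and 0 rose in limma, whereas 0.892% of all genes fell and 1.33% rose, and 5 members had an unadjusted p under 0.05. The median was -0.01. The smallest p-value was that of Rpl12 at 0.25 ± 0.077 (adjusted p = 0.069), followed by Rpl14 at 0.10 and Rps7 at -0.10. Rpl12 is uncertain as deposited, since its copy Gm10275 held 91.7% of the pair. With copies summed 0 members fell and 0 rose (151 and 225 of all genes). Rps18 was at 3420 to 3997 (median 3609) in WT lithium, which lies within its WT vehicle range.

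Lithium in HT gave lower values. Of the 76 genes 31 fell, 18 large and 13 small, and 0 rose, whereas 2.26% of all genes fell and 2.75% rose. The median was -0.14, and 73 of 76 were below 0. Rps18 fell by 0.25 ± 0.042 (adjusted p = 0.00044), Rpl15 by 0.22 ± 0.037 (adjusted p = 0.00027), Rpl10a by 0.31 ± 0.055 and Rps14 by 0.25 ± 0.049. With copies summed, Rpl10a fell by 0.19 ± 0.040 (adjusted p = 0.0033). Rpl17, Rpl34 and Rps27a also fell, by 0.20, 0.21 and 0.20. Rplp1 was at -0.21 ± 0.088 (adjusted p = 0.17) and Rpl24 at -0.22 ± 0.071 (adjusted p = 0.063). By transcript length, 17 of 33, 11 of 26 and 3 of 17 fell, and 28 of the 59 of up to 1000 bases (6.2% of all genes of that length). With the length and GC trend removed 15 fell and 0 rose (1.85% and 2.87% of all genes). The count was 57 without HT vehicle female replicate 1, where 753 of all genes fell in place of 382. It was 18 without HT vehicle female replicate 4, where 167 of all genes fell. Replicate 1 was set apart by its low member values, so the rise to 57 follows in part from that choice.

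Within the sexes, members passed the test in HT lithium females and not in males. In females 40 members (22 large, 18 small) fell, with a median of -0.22, against 2.35% of all genes. In males 0 fell in limma, with a median of -0.07, 3 with an unadjusted p under 0.05, and 0.0177% of all genes. The 5 HT lithium females had Rps18 at 2822, 2677, 2698, 2807 and 2810, and the 5 males at 3529, 3793, 3410, 3604 and 3327. Every female lay below every male, and the males lay within the range of WT vehicle except for the lowest 2. Rpl27 was at 1504, 1650, 1419, 1415 and 1406 in the females and at 2088, 2081, 2334, 2044 and 2415 in the males. It fell by 0.48 ± 0.072 in females (adjusted p = 0.00012) and was at 0.04 ± 0.072 in males (adjusted p = 0.94). With copies summed, Rpl27 was at -0.33 ± 0.052 in females (adjusted p = 0.00021) and at -0.06 ± 0.052 in males (adjusted p = 0.82).

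In 51 members (32 large, 19 small) all HT lithium females lay below all HT lithium males, against 4.16% of all genes. The level of the large subunit was -0.16 ± 0.04 (SD, n = 5) in these females and 0.07 ± 0.03 in the males. The length slope was 0.0438 ± 0.0221 in the females and -0.0394 ± 0.0154 in the males, so it moved with the level here too. The difference of the lithium effect in HT between the sexes, a comparison added after these values were seen, passed the test in 0 of 76 members in limma (median 0.16, males minus females). An unadjusted p under 0.05 was held by 24 of the 76 and by 1381 of all genes. Rpl27 was at 0.52 ± 0.102 (adjusted p = 0.069) as deposited and at 0.27 ± 0.074 (adjusted p = 0.38) with copies summed. Without the 3 libraries that stood apart 13 members passed, all higher (35 of all genes higher and 11 lower). Without HT vehicle female replicate 1 alone 6 did, and with all libraries kept 0 of all genes passed. Against HT vehicle females, 8 members did not overlap (2.15% of all genes), and without that replicate 61 did not (6.22%). These larger counts follow in part from setting that replicate apart by its low member values.

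With fluoxetine members fell in each sex of each genotype. In WT 48 fell in females (3.98% of all genes) and 43 in males (3.32%), and in HT 27 in females (4.43%) and 47 in males (2.39%). The difference between the sexes passed in 0 members in limma (5 with an unadjusted p under 0.05, against 2146 of all genes).

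The 2 drugs were also compared directly. In WT 61 members were lower in fluoxetine than in lithium (34 large, 27 small), and 0 were higher, against 11.2% and 10.1% of all genes, with a median of -0.24. In HT 19 were lower (6.88% of all genes) and 1 was higher, Rpl4 at 0.08 (6.18%), with a median of -0.07. With the length and GC trend removed, 9 were lower and 7 higher in HT, with a median of -0.0085 (1020 and 1006 of 16908 genes). Without the 3 libraries that stood apart 34 were lower and 0 higher (956 and 766 of all genes). HT against WT in lithium gave 9 lower members, 4 large and 5 small, and 0 higher, against 0.319% and 0.231% of all genes, with Rps18 at -0.25 and Rpl27 at -0.28 (each with adjusted p = 0.003). The 9 became 1 with a sex term in place of separate means by sex, 5 with the length and GC trend removed, 26 with equal totals per library, 34 without the 3 libraries that stood apart and 41 with the compared groups alone. The calls over all genes moved as well, from 54 lower to 7, 16, 202, 184 and 187 in the same order. Those higher went from 39 to 5, 15, 39, 188 and 262. With copies summed, Rpl27 was at -0.19 ± 0.037 (adjusted p = 0.0097). HT against WT in fluoxetine gave 0 in limma (8 with an unadjusted p under 0.05, and 0.00591% of all genes lower). The difference of the lithium effects between genotypes passed in 0 of 76, with an unadjusted p under 0.05 in 35 of 76 and 1139 of all genes. It passed in 10 without the 3 libraries that stood apart (22 of all genes lower and 3 higher), and in 2 without HT vehicle female replicate 1. With all libraries kept 0 of all genes passed.

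Counts were also split by the start sequence. Of 13 genes with a TOP start at the RefSeq site 8 fell with fluoxetine in WT (median -0.25), and of 43 without it 33 fell (median -0.23). In HT these were 7 and 31, and in HT lithium 4 and 18. Of all genes 7.78%, 7.38% and 2.26% fell in these comparisons. The split rests on the exact RefSeq base, as 37 of the 56 genes had such a run within 15 bases of the start. Genes without a TOP start by this rule may therefore still have one. The split was not tested.

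Related genes were counted by lists, beside which stand 7.78% of all genes lower and 7.0% higher with fluoxetine in WT, 7.38% and 6.63% in HT, and 2.26% and 2.75% with lithium in HT. Of 10 tested ribosomal protein genes outside the naming rule, 8 fell with fluoxetine in WT (median -0.29), 7 in HT (median -0.20) and 3 with lithium in HT (median -0.13). With the length and GC trend removed 5, 5 and 1 fell (medians -0.17, -0.09 and -0.10). Rpl22l1, a paralog of Rpl22, fell by 0.54 ± 0.062 in WT and 0.58 ± 0.060 in HT. Rack1, a scaffold on the small subunit, fell by 0.27 ± 0.049 in WT and was at -0.11 ± 0.047 in HT (adjusted p = 0.12).

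Translation factors with TOP mRNAs passed in both directions. Of 20, 6 fell and 2 rose in WT (median -0.01), 4 fell and 3 rose in HT, and 2 fell with lithium in HT. With the length and GC trend removed 3 fell and 4 rose in WT (median 0.03), 2 fell and 5 rose in HT (median 0.07), and 1 rose with lithium in HT. Eef1b2, an exchange factor, fell by 0.26 and 0.16, and the elongation factor Eef2 rose by 0.10 in WT and 0.19 in HT. Eef1a1 was at -0.02 in WT (adjusted p = 0.81). Of 27 other initiation and elongation factors 8 fell and 4 rose in WT, 7 fell and 4 rose in HT, and 5 fell and 1 rose with lithium in HT. With the trend removed 6 fell and 1 rose in WT, 5 fell and 5 rose in HT, and 1 fell and 1 rose with lithium. Eif4e, which binds the mRNA cap, fell by 0.27 and 0.23, and Eif4g3, a scaffold for it, rose by 0.20 and 0.18.

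Of 47 ribosome assembly genes 11 fell and 1 rose in WT and 9 fell and 1 rose in HT, while 2 rose with lithium in HT. With the trend removed 7 fell and 0 rose in WT, 4 fell and 1 rose in HT, and 2 rose with lithium. Emg1, an RNA methyltransferase, fell by 0.28 and 0.25. Rrn3, an initiation factor of RNA polymerase I, rose by 0.13 and 0.10. Of 28 genes of mTOR control, 1 fell and 7 rose in WT, 1 fell and 5 rose in HT, and 1 rose with lithium in HT. With the trend removed 1 rose in WT, 2 fell and 2 rose in HT, and 1 rose with lithium. Rictor, Rptor and Larp1 rose by 0.15, 0.15 and 0.12 in WT and by 0.12, 0.11 and 0.14 in HT, before removal of the trend. The gene that fell in HT was Mycn, at -0.48 ± 0.113 (adjusted p = 0.0024). In WT Mycn was at -0.29 ± 0.117 (adjusted p = 0.091). Of 14 tested pseudogenes named after ribosomal proteins 2 fell and 1 rose in WT, 1 fell and 4 rose in HT, and 0 passed with lithium in HT in limma (4 with an unadjusted p under 0.05). With the trend removed 2 rose in WT, 6 in HT and 1 with lithium in HT, and none fell. The list includes near-identical copies of members, such as Rpl10-ps3 and Rpl10a-ps1. Their values depend on how reads were assigned between copy and member.

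Markers of other cell types were counted beside these results, first averaged over the sexes. Of the 5 blood cell markers 3 fell with fluoxetine in WT (median -0.57) and 4 in HT (median -0.71). Their summed values were 6856 to 11690 in WT vehicle and 5018 to 9015 in WT fluoxetine, and 8105 to 14634 and 4215 to 9942 in HT. In HT lithium they were 5138 to 15046, and 0 of 5 passed in limma, with all 5 at an unadjusted p under 0.05 (median -0.49). Of 4 oligodendrocyte precursor markers 3 rose with fluoxetine in HT. Of 6 markers each, 2 excitatory neuron markers, 1 astrocyte marker and 1 microglia marker rose there and 2 endothelial markers fell. In WT 1 microglia and 1 endothelial marker rose with fluoxetine and 1 endothelial marker fell, and with lithium in HT 1 excitatory, 1 inhibitory and 1 endothelial marker rose. Of the lists for inhibitory neurons, myelin, choroid plexus, striatum, olfactory bulb and dentate gyrus 0 genes passed with fluoxetine in limma, and of these lists the olfactory bulb had the most, 5 of 6, at an unadjusted p under 0.05 in HT.

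Within the sexes the marker counts differed from these averages. In HT fluoxetine females 4 of 6 olfactory bulb markers fell (median -2.32), and all 4 oligodendrocyte precursor markers, 1 of 6 myelin markers and 1 of 3 dentate gyrus markers rose. HT fluoxetine female replicate 2, with the high choroid plexus sum, stood out here in mean log2 deviation over a list. It was at 5.67 for dentate gyrus, 1.62 for myelin, 0.92 for precursors and -3.68 for olfactory bulb. The other females of the group were at -1.06 to 0.43, -0.16 to 0.34, 0.21 to 0.50 and -2.05 to 0.88. In HT fluoxetine males the olfactory bulb median was 0.01, and 0 of these markers passed in limma. The olfactory bulb deviations of these males were -3.16 to 1.09, so low values were not limited to the females. The vehicle groups differed on this list, with HT vehicle females at 0.09 to 2.10 and HT vehicle males at -2.67 to 0.49. The medians of the 2 sexes are changes from these unlike groups. In WT fluoxetine females 1 of 7 striatum markers rose. In HT lithium females, where 40 members fell, the olfactory bulb median was -1.48, with 3 of 6 at an unadjusted p under 0.05 and 0 passing in limma, and in the males it was 0.02. These medians rest on the same unlike vehicle groups. In mean log2 deviation over the olfactory bulb list HT lithium females were at -2.67 to 0.37 and HT lithium males at -3.14 to 0.15. The part of these cells in the lower ribosomal protein values was not tested.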

How the data were processed

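Per the labels' protocols, libraries came from a TruSeq Stranded mRNA kit. The deposited signal holds gene values that the authors had estimated and normalized between libraries, and the submitters' processing notes name Salmon 0.11.2, R 3.6.0, DESeq2 1.19.11 and build GRCm38. The sum of values per library was 30.3 to 33.8 M, and depth was estimated, from the smallest steps of the values, as 25.9 M to 36.5 M reads. This depth limits the precision of low genes, and counting error is part of the spread between libraries. Whole reads could not be recovered, so no count test was run.

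R 4.3.3 and limma 3.58.1 were used to fit log2(value + 1) to 12 group means with a mean-variance trend and robust moderation (47 residual degrees of freedom), for 16919 genes with a mean of at least 10. Contrasts averaged over the sexes. Tests were two-sided. A gene was called where its p, adjusted over all genes by Benjamini-Hochberg, was under 0.05. Fold changes are on the log2(value + 1) scale, which understates the change of low genes. Alternatives were the pseudocount, the filter, the scaling, the samples and terms of the model, removal of the length and GC trend, summed copies and libraries left out. The last 2 and the sex difference of the lithium effect in HT were added after the data were seen.

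Groups came from the labels. Members and lists were chosen with earlier results of these data known. Named with values were the 5 large and 5 small subunit genes with the smallest p in each of 5 comparisons (of which some are given by count), genes of opposite sign with fluoxetine, the 3 highest and 3 lowest per kb, and genes with known roles. A few genes that this rule names are not reported here. Lengths and positions came from GENCODE release M21, copies from blastn 2.17.0, promoters from RefSeq. Python 3.11.15, pandas 2.3.3, NumPy 2.4.6 and matplotlib 3.10.9 were used. The pipeline was tested on simulated data.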

Additional observations from a re-analysis of the deposited data

Results flagged for a closer look

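Of 108 sets of 4 to 10 libraries examined, 14 held a library far from the others. Chance flags about 1 in 20 groups. The sets share libraries and the members move together, so the 14 cannot be set against this rate. HT vehicle female replicate 1 accounted for 10 of the 14. Its small subunit level was -0.21, against 0.11 to 0.21 in the other 4 HT vehicle females, and its length slope was 0.0670, against -0.0331 to -0.0132. Among the 10 HT vehicle libraries it was the lowest for Rpl24 (2236), Rpl26 (3769), Rpl22 (1978), Rplp1 (3760), Rps18 (2862), Rps14 (3671), Rps19 (1566) and Rpsa (7550). The other 9 libraries were at 6858 to 8104 for Rplp1 and at 3652 to 4202 for Rps18.

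HT fluoxetine female replicate 2 was the highest of the 10 HT fluoxetine libraries for Rpl3, at 12968 against 10309 to 11610, and for Rps6, at 5068 against 4024 to 4451. The large subunit level of HT fluoxetine male replicate 4 was 0.010, against -0.18 to -0.16 in the other 4 males of its group. The length slope of HT lithium female replicate 1 was 0.0056, against 0.0438 to 0.0588 in the other 4 females.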

How the results depend on the processing

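With the length and GC trend removed, 30 members were lower and 2 higher for fluoxetine in WT (449 and 511 of all genes). For fluoxetine in HT the counts were 34 and 5 (724 and 923 of all genes). For lithium 15 were lower in HT (312 of all genes) and 1 higher in WT (232). Fluoxetine against lithium gave 40 and 4 in WT (1304 and 1401 of all genes) and 9 and 7 in HT (1020 and 1006). Genotype in lithium gave 5 lower (16 of all genes). Lithium in WT also had 1 higher member, Rpl12, with the compared groups alone and without the 3 libraries that stood apart (266 and 342 of all genes). Summed copies gave 0 higher members with lithium in WT and 1 with fluoxetine in HT (225 and 1119 of all genes). Without the 3 libraries 57 members were lower for lithium in HT (968 of all genes). Fluoxetine against lithium in HT gave 34 lower and 0 higher (956 and 766 of all genes), and genotype in lithium 34 lower (184). The lithium effect of HT minus WT gave 10 lower (22 of all genes). The lithium effect of males minus females gave 6 higher (39 of all genes higher and 97 lower), and the same in HT 13 higher (35 and 11). Fluoxetine against lithium in HT had 0 higher members without a filter, with equal totals, with TMM and with the compared groups alone. Genotype in lithium gave 26 lower with equal totals, 41 with the compared groups alone and 1 with a sex term (202, 187 and 7 of all genes lower). The lithium sex difference in HT gave 1 with equal totals. No named gene that passed the test reversed its direction. Medians over the members changed sign where 0 or 1 member passed: genotype in vehicle went from -0.0024 to 0.0167 (length and GC trend removed) and 0.0385 (without the 3 libraries), lithium in WT from -0.0099 to 0.0103 (trend removed), the fluoxetine effect of HT minus WT from 0.0324 to -0.0009 and -0.0409, and that of males minus females from -0.0517 to 0.0257 (without the 3 libraries). The causes of these shifts were not tested.

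Leaving out each library in turn gave 57 to 62 lower for fluoxetine in WT, 50 to 58 in HT and 18 to 57 for lithium in HT (lowest without HT vehicle female replicate 4, highest without HT vehicle female replicate 1). It gave 0 to 1 higher for lithium in WT (1 without WT vehicle male replicate 2), 15 to 25 lower and 0 to 2 higher for fluoxetine against lithium in HT, and 5 to 9 for genotype in lithium (5 without WT lithium male replicate 1). It gave 0 to 2 for the lithium difference between genotypes and 0 to 6 for that between the sexes in HT, in both highest without HT vehicle female replicate 1. With all libraries kept, 1316, 1248 and 382 of all genes were lower for fluoxetine in WT, fluoxetine in HT and lithium in HT. With lithium in WT 225 of all genes were higher. Fluoxetine against lithium in HT had 1164 lower and 1045 higher, and genotype in lithium had 54 lower. Of 141 results for named genes, 15 lost and 26 gained the threshold under some alternative. Equal totals moved the median of all genes to -0.03 with fluoxetine in WT and -0.04 in HT, and the calls over all genes with fluoxetine in WT from 1316 lower and 1184 higher to 1861 and 814, and in HT from 1248 and 1122 to 1917 and 650, while 62 and 58 members were lower. Replicate numbers did not pair the libraries (median correlation 0.00056, from -0.38 to 0.57, over 319 pairs, and 12 of 59 libraries correlated best with their own number). With the replicate block 60, 53 and 33 members were lower with fluoxetine in WT, fluoxetine in HT and lithium in HT (1350, 1268 and 413 of all genes). Which members depth limits most was not compared.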
